A study of Mus musculus with 48 samples.

Results

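Transcripts of 10 genes that mark lymphocytes were followed in the livers of 48 mice: Cd3e, Cd3g, Cd8a and Cd8b1 for T cells, Cd79a, Cd79b and Ms4a1 for B cells, and Nkg7, Gzma and Ccl5 for cytotoxic T cells and NK cells. They were found by matching gene symbols to the Ensembl identifiers of a count table that lists 55414 genes, and all 10 were present. The mice are of the FCG (core genotypes) model on a C57BL/6 background, in which the testis-determining gene Sry is missing from the Y chromosome (XY-) and is supplied, in the SryTg mice, by a transgene on an autosome. Gonad type and sex chromosomes can thus be compared separately. Genotype XX mice have ovaries (XX Ov), XX;SryTg mice have testes (XX Te), XY- mice have ovaries (XY Ov) and XY-;SryTg mice have testes (XY Te). Each genotype was studied with its gonads in place (Intact) and after gonadectomy (GDX) at 75 days of age, with 6 mice and 1 liver library per mouse in each of the 8 groups. All groups ate a high-fat diet (HFD) with 60% of calories from fat from 15 to 17 weeks of age, the Intact mice for 11 weeks and the GDX mice for 15 weeks. These durations are those of the sample descriptions, and the study's methods text gives somewhat different ones. GDX and the length of HFD therefore cannot be told apart in these data.

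Messenger RNA of whole liver holds mostly hepatocyte transcripts, and lymphocytes contribute a small part of it. T cells read antigen through a receptor whose signal is carried by the CD3 chains, and CD8 helps the killer T cells among them to recognise their targets. B cells signal through CD79A and CD79B, the partner chains of surface immunoglobulin. The liver is also rich in NK cells and other cytotoxic lymphocytes, which kill with granule proteases and call further cells with chemokines. In such bulk samples, fewer cells of a type and less RNA per cell cannot be told apart.

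Libraries held 13071874 to 20045141 reads on genes, with a median of 16577748, so that 3 reads, the smallest count taken as shown, equal 0.15 to 0.230 CPM (reads per 1000000 reads on genes). Hepatocyte markers such as Alb and Apoa1 summed to 65427 CPM or more in every mouse, and 5 markers of exocrine pancreas to 0.544 CPM or less. Xist reached 123 to 1138 CPM in XX and 0.352 to 8.36 CPM in XY mice, and the Y-linked Ddx3y was at 3.82 CPM or less in XX and at 46.0 CPM or more in XY mice. The highest Y-linked levels among the XX mice belonged to XX Te Intact replicate 4. Reads outside annotated genes made up 3.47 to 6.20% of each Intact library and 8.52 to 11.3% of each GDX library, a further difference that goes with GDX.

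Lymphocyte reads were few. Per mouse, the median ranged from 2 reads for Cd8b1 to 46.5 for Cd79b, with 8 for Cd3e, 11 for Cd3g, 9 for Cd8a, 14.5 for Cd79a, 20 for Ms4a1, 7 for Nkg7, 21 for Gzma and 18 for Ccl5. Between 6 and 9 mice had under 3 reads of Cd3e, Cd3g, Cd8a or Nkg7, and 27 mice had under 3 reads of Cd8b1. The other 9 genes passed the filter on low counts and were tested, whereas Cd8b1 did not. A scarce gene can pass through the groups where it is high, so counts of calls among the members are not independent of the filter. In the RefSeq annotation of GRCm38.p6, Ms4a1 overlaps 4930526L06Rik, Gzma overlaps Cdc20b and Ccl5 overlaps Gm32650, so their counts may hold some reads of those genes.

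**Figure D1:**
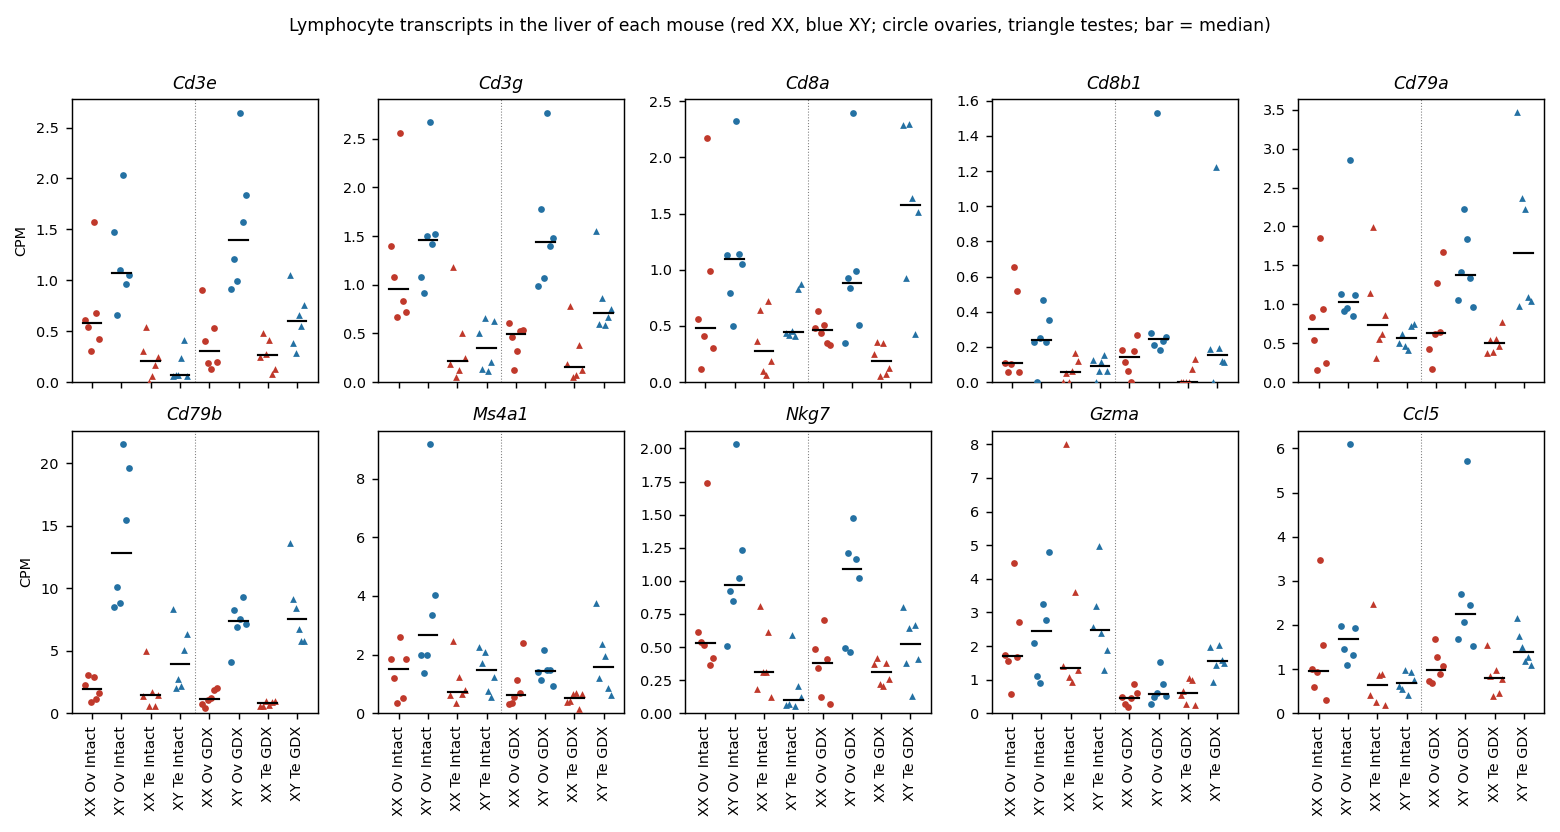
Level of each of the 10 transcripts (CPM, linear axis from 0, a different range in each panel) in each of the 48 mice, by group, with XX mice in red, XY mice in blue, circles for ovaries, triangles for testes and a bar at the median of the 6 mice. Cd79b lies between 4.14 and 13.6 CPM in the 12 XY GDX mice and at 2.01 CPM or less in the 12 XX GDX mice, and Gzma is at 2.03 CPM or less in every GDX mouse.

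Expression was modelled with edgeR from all 48 mice, each group having its own mean, and p-values were adjusted over the 15414 tested genes. The gonadal effect was Ov Intact minus Te Intact, the chromosomal effect XX minus XY, the ovariectomy effect Ov GDX minus Ov Intact and the castration effect Te GDX minus Te Intact. These comparisons share mice, since the Intact mice enter all 4. In the gonadal effect, 7 of the 9 tested lymphocyte transcripts were past an adjusted p of 0.05, all 7 higher with ovaries, where 25.3% of all tested genes passed and 14.1% were higher. The median log2 fold change was 1.04 for the 9 genes and 0.04 for all genes. In the chromosomal effect, 7 of 9 passed, all 7 lower in XX than in XY mice, beside 36.7% of all genes in either direction and 14.8% lower, with medians of -0.77 and 0.05. Ovariectomy lowered 5 of 9 and raised none, where 69.4% of all genes passed, 36% higher and 33.4% lower, and castration raised 1 and lowered 1, where 63.3% passed, 33.4% higher and 29.9% lower. In either direction, the count after castration is below the share among all genes. That after ovariectomy is below it by less, and all 5 of its calls were lower. Scaling by library totals in place of the trimmed mean of M values (TMM) moved the median log2 fold change of all genes by 0.21 for ovariectomy, 0.20 for castration and -0.18 for the chromosomal effect in GDX mice. It also turned the split of calls among all genes in the chromosomal effect from 3382 higher and 2275 lower to 1207 and 3083. With totals, the split was 2146 higher and 1007 lower in the gonadal effect (2171 and 1736 with TMM), 7362 and 3768 for ovariectomy (5554 and 5141) and 7306 and 3208 for castration (5147 and 4611). Of the members in these 4 comparisons, Cd79a after ovariectomy changed sign with totals, and it was not called with either scaling.

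**Figure D2:**
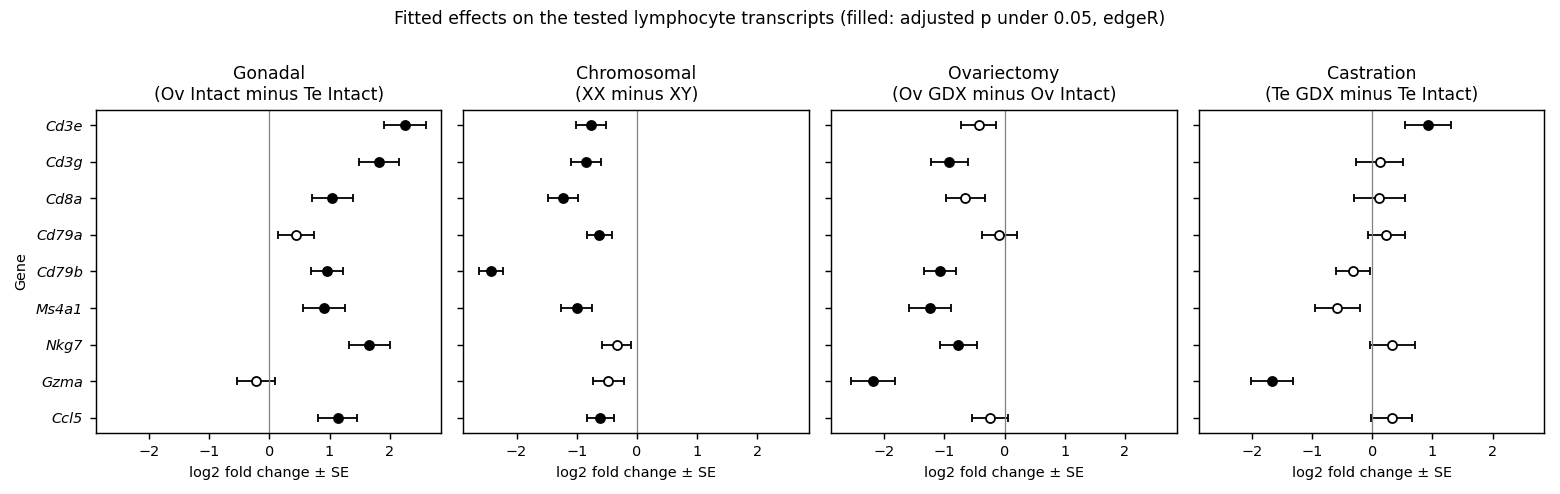
Fitted log2 fold change (point) with its standard error (bar) of the 9 tested transcripts in the 4 main comparisons, with filled points for an adjusted p under 0.05. The filled points lie above 0 in the gonadal panel and below 0 in the chromosomal and ovariectomy panels, and the castration panel has Gzma at -1.66 and Cd3e at 0.93.

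T cell transcripts were higher in Intact mice with ovaries than with testes. Cd3e, which encodes the epsilon chain of CD3, ranged from 0.309 to 2.04 CPM (median 0.821) in the 12 Ov Intact mice and from 0 to 0.538 CPM (median 0.118) in the 12 Te Intact mice. Of the Ov Intact mice, 10 lay above every Te Intact mouse, and the log2 fold change was 2.25 ± 0.35 (SE, adjusted p = 3.45e-06). Cd3g, the gene of the gamma chain, ranged from 0.670 to 2.67 CPM (median 1.24) with ovaries and from 0.0515 to 1.18 CPM (median 0.226) with testes. The groups overlapped, with 6 of the 12 Ov Intact mice above every Te Intact mouse, and the log2 fold change was 1.83 ± 0.33 (SE, adjusted p = 6.28e-05). Cd8a, the CD8 alpha chain, had medians of 0.887 and 0.427 CPM and a log2 fold change of 1.04 ± 0.34 (SE, adjusted p = 0.0215). Its call rested on single mice: without XX Ov Intact replicate 4 the value was 0.75 (adjusted p = 0.0890), and it was also lost without XY Ov Intact replicate 4. Cd8b1, the CD8 beta chain, summed to 55 reads in the 12 Ov Intact and 16 in the 12 Te Intact mice, and was not tested.

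Sex chromosomes went with the same T cell genes. XY mice had a median Cd3e level of 0.833 CPM (0.0626 to 2.64) and XX mice of 0.306 CPM (0 to 1.58), with a log2 fold change of -0.77 ± 0.25 (SE, adjusted p = 0.0120). Leaving out XY Te Intact replicate 5 took this to -0.63 (adjusted p = 0.0638). Cd3g had medians of 0.480 CPM in XX and 0.951 CPM in XY mice, and the log2 fold change was -0.85 ± 0.24 (SE, adjusted p = 0.00494). For Cd8a the medians were 0.356 CPM in XX (0.0559 to 2.17) and 0.899 CPM in XY mice (0.351 to 2.40), with -1.23 ± 0.25 (SE, adjusted p = 9.63e-05). The XX and XY mice overlapped for all 3 genes, and 2 to 4 of the 24 XY mice lay above every XX mouse. Cd8b1 summed to 51 reads in XX and 102 in XY mice.

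Fewer T cell genes passed in the GDX comparisons. After ovariectomy Cd3g fell by 0.92 on the log2 scale (SE 0.31, adjusted p = 0.00768), from a median of 1.24 to 0.794 CPM, with overlapping groups. Without TMM scaling, the medians went from 0.954 to 0.494 CPM in XX and from 1.46 to 1.44 CPM in XY mice. On this scale the lower level was seen in the XX mice. The fit also uses TMM factors, which were 0.81 to 1.08 in XY Ov Intact and 1.10 to 1.18 in XY Ov GDX mice. The other CPM medians given before and after GDX are unscaled too, and need not follow the fitted values. Whether XX and XY mice differed in the ovariectomy effect was not tested. Cd3e had -0.43 (adjusted p = 0.187) and Cd8a -0.65 (adjusted p = 0.0712), and neither passed. Unscaled, median Cd3e went from 0.576 to 0.301 CPM in XX and from 1.08 to 1.39 CPM in XY mice. Without XY Ov GDX replicate 4, the highest Cd8a level of its group, Cd8a reached -0.89 (adjusted p = 0.0146), and it also passed without XX Ov Intact replicate 2 or XY Ov Intact replicate 3. After castration Cd3e rose from a median of 0.118 to 0.399 CPM, with 4 of the 12 Te GDX mice above every Te Intact mouse and a log2 fold change of 0.93 ± 0.39 (SE, adjusted p = 0.0350). The medians went from 0.206 to 0.263 CPM in XX and from 0.0673 to 0.601 CPM in XY mice. This call was lost in 10 of the 48 fits that left out a mouse, most clearly without XX Te GDX replicate 2 (0.80, adjusted p = 0.0840). The other 9 mice were XX Te GDX replicate 4, XY Te GDX replicates 1 and 6, XX Te Intact replicates 3 and 4, and XY Te Intact replicates 1, 2, 3 and 6. Cd3g (0.13, adjusted p = 0.785) and Cd8a (0.11, adjusted p = 0.821) did not pass, as averages over XX and XY mice. The Cd8a medians went from 0.274 to 0.187 CPM in XX and from 0.449 to 1.57 CPM in XY mice. For Cd3g they went from 0.213 to 0.157 CPM in XX and from 0.354 to 0.712 CPM in XY mice. A difference between XX and XY mice in the castration effect was not tested.

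Among the B cell transcripts, Cd79b had the largest chromosomal effect of the 9 tested genes. In Intact mice with ovaries it was at 0.928, 1.95 and 3.06 CPM (lowest, median and highest of 6) in XX and at 8.54, 12.8 and 21.6 CPM in XY mice. With testes, the Intact groups were at 0.556, 1.43 and 4.95 CPM in XX and at 2.0, 3.93 and 8.36 CPM in XY mice. After GDX the ovary groups were at 0.459, 1.14 and 2.01 CPM (XX) and 4.14, 7.37 and 9.34 CPM (XY). The former testis groups were at 0.599, 0.805 and 1.01 CPM (XX) and 5.75, 7.57 and 13.6 CPM (XY). XX and XY did not overlap in 3 of these 4 settings, and in Te Intact mice XX replicate 2 reached into the XY range. Over all 48 mice, 20 of 24 XY mice lay above every XX mouse, and the log2 fold change was -2.43 ± 0.20 (SE, adjusted p = 5.10e-14).

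CD79A and CD79B form a pair, but the counts of the genes did not move by the same amount. Cd79a had medians of 0.584 CPM in XX (0.155 to 1.99) and 1.05 CPM in XY mice (0.408 to 3.47), with a log2 fold change of -0.62 ± 0.21 (SE, adjusted p = 0.0163). The number of Cd79b reads per Cd79a read, which also depends on transcript length and is compared here only between mice, had a median of 1.71 in XX (0.909 to 6.75) and 6.48 in XY mice (3.03 to 18.1). On this ratio, 3 of the 24 XX mice lay above the lowest XY mouse. The difference in response between the genes was not tested. Ms4a1, which encodes the B cell surface protein CD20, had medians of 0.669 CPM in XX (0.153 to 2.61) and 1.60 CPM in XY mice (0.567 to 9.19), with -1.0 ± 0.26 (SE, adjusted p = 0.00163).

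With gonads in place, Cd79b was higher with ovaries (median 5.80 CPM, 0.928 to 21.6) than with testes (2.11 CPM, 0.556 to 8.36), at a log2 fold change of 0.95 ± 0.26 (SE, adjusted p = 0.00724). The 6 Ov Intact mice above every Te Intact mouse were the 6 XY Ov Intact mice. Ms4a1 had 0.91 ± 0.35 (SE, adjusted p = 0.0466), a call that was lost in 21 of the 48 fits without a mouse and stood at 0.67 (adjusted p = 0.143) without XY Ov Intact replicate 4, the highest of all mice at 9.19 CPM. It was also lost with library totals (adjusted p = 0.0564), with every gene of at least 1 read (adjusted p = 0.110), with the compared arms alone (adjusted p = 0.116), without XX Te Intact replicate 5 (adjusted p = 0.0673) and with 1 surrogate variable (adjusted p = 0.145). Cd79a, at 0.45 (adjusted p = 0.257), did not pass. Ovariectomy was followed by lower Cd79b (-1.08 ± 0.27, SE, adjusted p = 0.000524) and Ms4a1 (-1.24 ± 0.35, SE, adjusted p = 0.00184), and Cd79a had -0.09 (adjusted p = 0.796). Unscaled, median Cd79a went from 0.688 to 0.635 CPM in XX and from 1.03 to 1.38 CPM in XY mice. None of the 3 B cell genes passed after castration, with adjusted p-values from 0.174 to 0.524. Cd79b had -0.32, Ms4a1 -0.58 and Cd79a 0.23, averaged over XX and XY mice. In XY Te mice median Cd79a went from 0.562 CPM (0.408 to 0.751) to 1.66 CPM (0.981 to 3.47), without overlap. In XX Te mice it went from 0.735 to 0.498 CPM. Median Cd79b went from 1.43 to 0.805 CPM in XX and from 3.93 to 7.57 CPM in XY mice. Median Ms4a1 went from 0.732 to 0.531 CPM in XX and from 1.49 to 1.58 CPM in XY mice. Whether XX and XY mice differed in this was not tested.

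Gzma, the gene of the granule protease granzyme A, passed in both GDX comparisons and in neither the gonadal nor the chromosomal one. It was at 0.567, 1.69 and 4.46 CPM (lowest, median and highest) in XX Ov Intact, 0.898, 2.44 and 4.81 CPM in XY Ov Intact, 0.924, 1.34 and 8.02 CPM in XX Te Intact and 1.29, 2.48 and 4.98 CPM in XY Te Intact mice. After GDX it was at 0.187, 0.465 and 0.881 CPM in XX Ov, 0.281, 0.561 and 1.54 CPM in XY Ov, 0.258, 0.606 and 1.04 CPM in XX Te and 0.927, 1.55 and 2.03 CPM in XY Te mice. Ovary-bearing mice thus had less Gzma after GDX, with 9 of the 12 Ov Intact mice above every Ov GDX mouse and a log2 fold change of -2.19 ± 0.37 (SE, adjusted p = 1.75e-06). The castration effect was -1.66 ± 0.35 (SE, adjusted p = 7.59e-05), with 6 of the 12 Te Intact mice above every Te GDX mouse. Both calls held in each of the 48 fits without a mouse. Neither the gonadal effect (-0.23, adjusted p = 0.617) nor the chromosomal effect (-0.48, adjusted p = 0.144) passed, but without XX Te Intact replicate 2, the mouse at 8.02 CPM, the chromosomal value was -0.63 (adjusted p = 0.0300).

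Nkg7, a granule membrane protein gene of NK and cytotoxic T cells, was at 0.363 to 2.04 CPM (median 0.730) in Ov Intact and at 0.0583 to 0.807 CPM (median 0.194) in Te Intact mice. Its gonadal effect was 1.66 ± 0.34 (SE, adjusted p = 0.000285), with 6 of the 12 Ov Intact mice above every Te Intact mouse. The lowest group was XY Te Intact, with a median of 0.0971 CPM, which is under 3 reads. Ovariectomy gave -0.77 ± 0.30 (SE, adjusted p = 0.0233). Unscaled, the medians went from 0.527 to 0.378 CPM in XX and from 0.972 to 1.09 CPM in XY mice. That call was lost without XX Ov Intact replicate 4 (-0.56, adjusted p = 0.0997), without XY Ov Intact replicate 4, and with library totals in place of TMM (-0.56, adjusted p = 0.0999). The chromosomal effect of Nkg7 was -0.34 (adjusted p = 0.300) and its castration effect 0.34 (adjusted p = 0.436).

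Ccl5, a chemokine gene expressed by cytotoxic T and NK cells, had medians of 1.38 CPM in Ov Intact (0.300 to 6.11) and 0.690 CPM in Te Intact mice (0.184 to 2.48). The groups overlapped widely, and the gonadal effect was 1.14 ± 0.32 (SE, adjusted p = 0.00843). In the chromosomal effect, medians of 0.872 CPM in XX and 1.48 CPM in XY mice gave -0.61 ± 0.23 (SE, adjusted p = 0.0315). Without XY Ov Intact replicate 4 the latter was -0.47 (adjusted p = 0.0802), and it was also lost without XY Ov GDX replicate 4. Neither ovariectomy (-0.24, adjusted p = 0.479) nor castration (0.32, adjusted p = 0.405) passed.

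Within the Intact mice, 1 of the 9 tested transcripts passed in the chromosomal effect, beside 10.7% of all genes in either direction and 6.42% lower. This was Cd79b, at -2.08 ± 0.27 (SE, adjusted p = 1.24e-07). Ms4a1 had -0.95 (adjusted p = 0.0685) and passed in 6 of the 48 fits without a mouse, for example at -1.17 (adjusted p = 0.0200) without XX Te Intact replicate 2. Averaged over both gonad types, Cd3e (-0.19), Cd3g (-0.15) and Cd79a (-0.07) were near 0 in these mice, and Nkg7 had 0.20. With ovaries, median Cd3e was 0.576 CPM in XX and 1.08 CPM in XY mice, and with testes 0.206 and 0.0673 CPM. Cd79a had 0.688 and 1.03 CPM with ovaries and 0.735 and 0.562 CPM with testes. Nkg7 had 0.527 and 0.972 CPM with ovaries and 0.309 and 0.0971 CPM with testes. The XY Te Intact medians of Cd3e and Nkg7 are under 3 reads. Whether the gonad types differed in this was not tested. Within the GDX mice 8 of 9 passed, all lower in XX, where 34.3% of all genes passed and 14.8% were lower. The split of all calls in GDX mice was 3001 higher and 2287 lower, and 787 and 3411 with library totals. In Intact mice it was 658 and 990, and 281 and 864 with totals.

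In the GDX mice, Cd79b was lower in XX by the largest amount of the 9 genes (-2.77 ± 0.29, SE, adjusted p = 8.99e-11), and all 12 XY GDX mice lay above every XX GDX mouse. Cd8a had -1.79 ± 0.36 (SE, adjusted p = 9.85e-05), with 9 of the 12 XY GDX mice above every XX GDX mouse. Cd3g (-1.55), Cd3e (-1.35) and Cd79a (-1.17) had adjusted p-values from 0.000435 to 0.00148. Ms4a1 (-1.05), Ccl5 (-0.91) and Nkg7 (-0.88) passed with adjusted p-values from 0.0220 to 0.0378, and each of these 3 calls was lost when a single mouse was left out. Ms4a1 went to -0.90 (adjusted p = 0.0713) without XY Te GDX replicate 1, and Ccl5 to -0.73 (adjusted p = 0.0688) without XY Ov GDX replicate 4. Nkg7 lost its call in 11 fits, each without a GDX mouse, among them XY Ov GDX replicate 4, and stood at -0.81 (adjusted p = 0.0751) without XY Te GDX replicate 1. Gzma had -0.78 (adjusted p = 0.131).

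**Figure D3:**
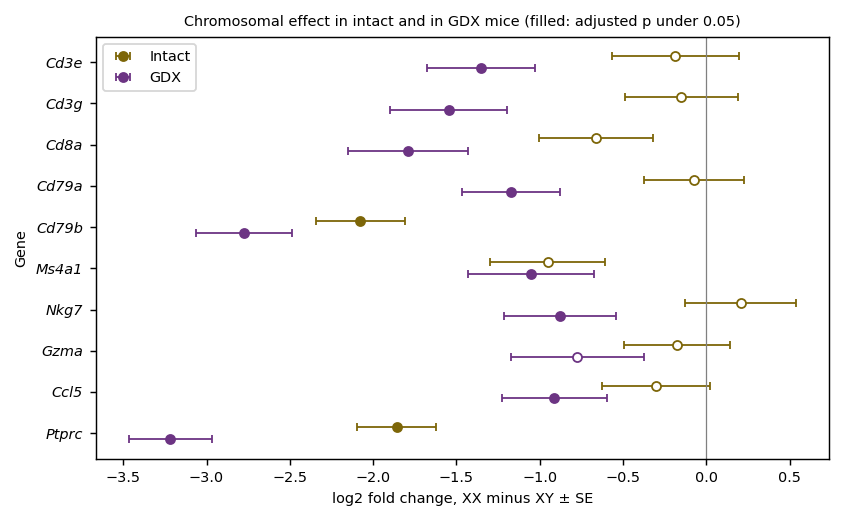
Log2 fold change of XX minus XY (point, with standard error) in Intact and in GDX mice for the 9 tested transcripts and for Ptprc, which is not one of the 10 genes, with filled points for an adjusted p under 0.05. Each GDX point lies to the left of its Intact point, and of the Intact points of the 9 transcripts only that of Cd79b is filled.

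The difference between the chromosomal effects in GDX and Intact mice was itself tested. It was negative for all 9 genes, from -1.40 for Cd3g to -0.10 for Ms4a1, and none passed (adjusted p from 0.120 to 0.945, beside 2.12% of all genes). In edgeR 5 of the 9 had an unadjusted p under 0.05, and DESeq2 called none. Without XX Te GDX replicate 2, Cd3g passed at -1.78 (adjusted p = 0.0476). The Intact and GDX values of the lymphocyte genes are therefore not shown to differ. Ptprc, which encodes the common leukocyte antigen CD45, did pass this test at -1.36 ± 0.33 (SE, adjusted p = 0.0200), with chromosomal effects of -1.86 in Intact and -3.22 in GDX mice.

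Among the remaining comparisons, no member was called. Ov GDX minus Te GDX, the effect of the former gonad, ranged from -0.75 for Gzma to 0.90 for Cd3e. No member passed in edgeR or DESeq2, with 2 at an unadjusted p under 0.05 in edgeR, and 0.0908% of all genes passed. The castration effect minus the ovariectomy effect was positive for all 9, from 0.32 for Cd79a to 1.35 for Cd3e (adjusted p = 0.0863). It passed for none in edgeR or DESeq2, with 3 at an unadjusted p under 0.05 in edgeR, beside 5.6% of all genes. Cd3e passed in 4 of the 48 fits that left out a mouse, at 1.59 (adjusted p = 0.0323) without XX Te Intact replicate 2 and also without XX Ov GDX replicate 1, XX Ov Intact replicate 3 or XY Te Intact replicate 5. Nkg7 had 1.10 and passed at 1.5 (adjusted p = 0.0411) without XY Te Intact replicate 3.

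Levels summed over the genes of a role showed how mice differed within groups. The 4 T cell genes summed to a median of 2.24 CPM (1.49 to 6.96) in XX Ov Intact, 3.83 (2.37 to 7.50) in XY Ov Intact, 0.822 (0.154 to 2.42) in XX Te Intact and 1.19 (0.622 to 1.63) in XY Te Intact mice. After GDX the sums were 1.46 (0.811 to 2.18) in XX Ov, 4.16 (2.53 to 7.99) in XY Ov, 0.644 (0.391 to 1.62) in XX Te and 3.11 (1.76 to 5.08) in XY Te mice. A few mice were high for several roles. XX Ov Intact replicate 4, XY Ov Intact replicate 4 and XX Te Intact replicate 2 had the highest T, B and cytotoxic sums of their groups, as did XY Te GDX replicate 1, and XY Ov GDX replicate 4 had the highest T and cytotoxic sums.

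After the mean of its group was subtracted from each mouse, the T and cytotoxic sums (log2, TMM-scaled) had a Pearson r of 0.64 over the 48 mice (permutation p = 1e-05, the smallest that 100000 resamples can give, 3e-05 adjusted over 3 pairs). Spearman's rho was 0.51 (permutation p = 0.00032, adjusted 0.00096), and r was 0.56 without the 2 mice farthest from the median T sum. The B and cytotoxic sums had r = 0.50 (permutation p = 0.00037, adjusted 0.000555) and rho = 0.44 (permutation p = 0.00198, adjusted 0.00297), with r = 0.37 without the 2 farthest mice. For T and B, r = 0.40 (permutation p = 0.00422, adjusted 0.00422) and rho = 0.30 (permutation p = 0.0407, adjusted 0.0407). Here r fell to 0.22 without the 2 farthest mice, so its size depends in part on them. The same values were computed within each cohort. In the 24 Intact mice r was 0.60 for T and B, 0.69 for T and cytotoxic and 0.62 for B and cytotoxic (permutation p = 0.00178, 0.00012 and 0.00134). In the 24 GDX mice r was -0.01, 0.50 and 0.21 (permutation p = 0.966, 0.0128 and 0.327), so that neither relation of the B sum passed there. The difference between the cohorts was not tested. For T and B, rho was 0.51 in Intact mice (permutation p = 0.0114) and 0.07 in GDX mice (permutation p = 0.732). In GDX mice rho for T and cytotoxic was 0.38 (permutation p = 0.0680). The sums of a mouse come from the same library and share its depth. Over the 48 mice, resamples shuffled the deviations freely and not within groups. This treats the groups as alike in spread and takes no account of the subtracted group means. These permutation p-values are therefore approximate and may be too small.

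**Figure D4:**
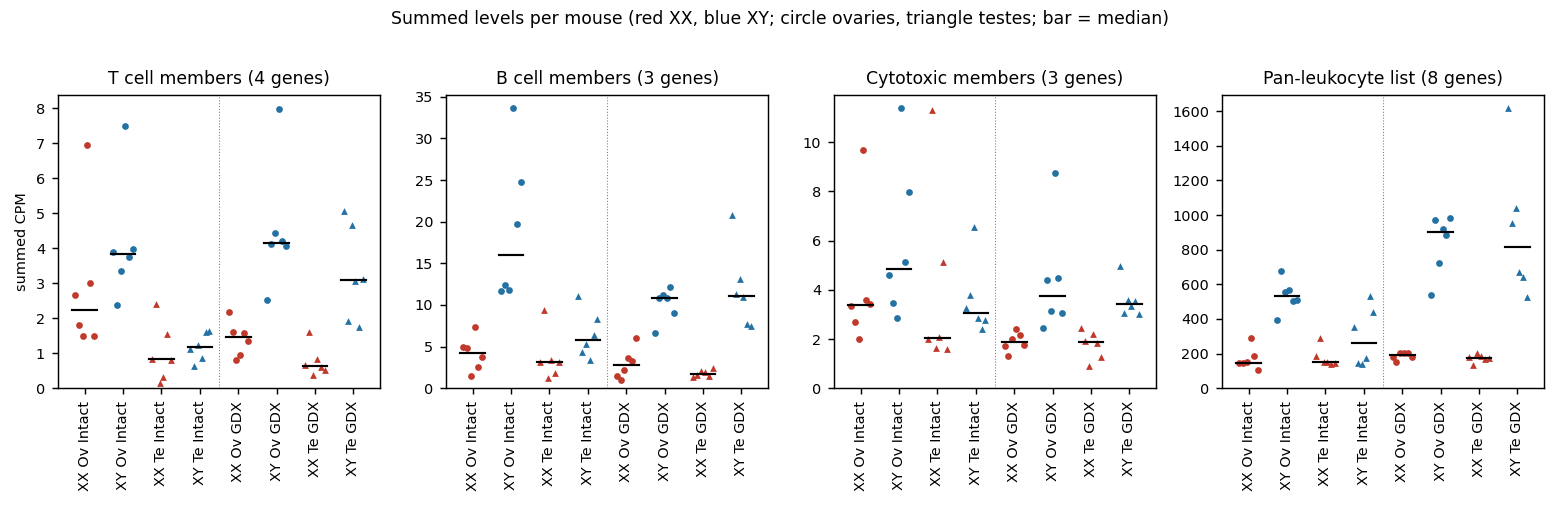
Summed CPM per mouse (linear axis from 0) of the T cell, B cell and cytotoxic genes and of 8 pan-leukocyte genes, by group, with a bar at the median of the 6 mice. The pan-leukocyte sum is at 206 CPM or less in the 12 XX GDX mice and at 525 CPM or more in the 12 XY GDX mice.

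Of the other tested genes, those most like the T sum within groups were Gzmb (Spearman's rho 0.64 over 48 mice), Pou2af1 (0.59), Gimap7 (0.58) and Rnd1 (0.57). For the B sum they were Clec4b1 (0.84), Rhoh (0.83), Casp4 (0.81) and ENSMUSG00000099974 (0.80), for which no symbol was matched. None of these is on the list of other B cell genes used below, whereas Pou2af1 is. For the cytotoxic sum they were Fam26f (0.77), Psmb8 (0.73), Mcl1 (0.72) and Ifitm2 (0.70). These are descriptions of deviations from group means, chosen as the 4 highest of all tested genes.

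Other genes of the same cell types were read from lists that do not hold the 10 members. Of 24 matched T cell genes, 17 passed the filter on low counts and were tested. In the gonadal effect 15 of the 17 were higher and 1 lower, where 14.1% of all genes were higher. A scarce gene can pass this filter through the groups where it is high. The counts here and for the lists below therefore depend in part on the filter. Cd3d, the delta chain of CD3, rose the most, at 2.76 ± 0.39 (SE, adjusted p = 6.15e-07). Its medians were 1.5 CPM with ovaries and 0.165 CPM with testes. Cd3d reads were few, with a median of 3.5 reads over all mice and under 3 reads in 17 mice. The gene that was lower with ovaries was Cd4, the coreceptor of helper T cells, at -0.88 ± 0.28 (SE, adjusted p = 0.0194), from 0.111 to 1.14 CPM with ovaries and 0.363 to 1.60 CPM with testes. In mice, Cd4 is not confined to T cells and is also read in some macrophages and dendritic cells. In the chromosomal effect 8 of the 17 were lower in XX and none higher, beside 14.8% of all genes lower. They ran from Lck (-0.61), a kinase of T cell receptor signalling, to Il7r (-0.93), the interleukin 7 receptor. In the TMM-scaled fit ovariectomy lowered 10 of the 17, beside 33.4% of all genes, from Tcf7 (-0.35) to Cd3d (-2.70), and raised none. The unscaled medians of Tcf7 were 6.68 CPM in Ov GDX and 6.55 CPM in Ov Intact mice, so these medians do not show the lower value. Castration raised 4 of the 17, beside 33.4% of all genes, with Cd27 highest at 0.96. It lowered 1, Zap70 (-1.38), the gene of another kinase of T cell receptor signalling. Zap70 had medians of 7.31 CPM in Te GDX and 19.2 CPM in Te Intact mice. Its median over all mice was 206 reads, where Tcf7 had 98 and Lck 11. Which cells these reads come from was not tested.

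Of 17 tested B cell genes, 6 were higher and none lower with ovaries, beside 14.1% of all genes higher. They ran from the kinase gene Btk (0.85) to the light chain gene Igkc (1.55). Igkc reached 181 CPM in an Ov Intact mouse, where the group's median was 9.95 CPM. In the chromosomal effect 10 were lower in XX and none higher, beside 14.8% of all genes lower. Ighm, the heavy chain of IgM, was lowest at -1.87 ± 0.23 (SE, adjusted p = 7.85e-09), with medians of 9.35 CPM in XX and 39.5 CPM in XY mice. Pax5 (-0.56) was the nearest to 0 of the 10. After ovariectomy 5 of the 17 were higher, a share below the 36% of all genes, and none lower, from Cd37 (0.51) to Pax5 (1.16), where Cd79b and Ms4a1 were lower. After castration 7 of the 17 were higher, a share near the 33.4% of all genes, and none lower, from Btk (0.50) to the adaptor gene Blnk (1.40). Immunoglobulin genes belong to a large family whose members can exchange reads.

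Cytotoxic genes outside the 10 numbered 13 tested, of which 11 were higher and none lower with ovaries, beside 14.1% of all genes higher. They ran from Klre1 (1.12) to Fasl, the death ligand gene, at 2.87 ± 0.39 (SE, adjusted p = 3.03e-07). Fasl reads were few, with a median of 2.5 reads over all mice and under 3 reads in 24 mice. Its medians were 0.484 CPM with ovaries and 0.0619 CPM with testes, so the size of this value is imprecise. Ncr1, a receptor of NK cells, had 1.28 ± 0.37 (SE, adjusted p = 0.0103) in the gonadal and 0.22 (adjusted p = 0.510) in the chromosomal effect. In XX mice 3 of the 13 were lower than in XY mice and none higher, beside 14.8% of all genes lower. They ran from Gzmb (-0.55) to the chemokine gene Ccl4 (-2.86), and the latter is also made by macrophages. Ccl4 had a median of 9 reads over all mice and under 3 reads in 11 mice. In the TMM-scaled fit ovariectomy lowered 8 of the 13, beside 33.4% of all genes, and raised none. They ran from Ctsw (-0.62) to Xcl1 (-2.03). Xcl1 had a median of 5 reads over all mice and under 3 reads in 18 mice. Unscaled, the medians of Ctsw were 1.27 CPM in Ov GDX and 1.2 CPM in Ov Intact mice. After castration 5 of the 13 were higher, a share near the 33.4% of all genes, with Ncr1 highest (1.16), and 1 lower, Klrk1 (-0.99).

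Chemokines and their receptors direct where lymphocytes go. Of 15 tested, 8 were higher and none lower with ovaries, beside 14.1% of all genes higher. They ran from Cxcl16 (0.58) to its receptor Cxcr6, at 2.96 ± 0.34 (SE, adjusted p = 4.06e-09), with medians of 3.17 CPM with ovaries and 0.367 CPM with testes. In the chromosomal effect 6 of the 15 were lower in XX, beside 14.8% of all genes, and 1 higher, Ccl22 (1.15). Ccl22 had a median of 4 reads over all mice and under 3 reads in 14 mice. Cxcl13, a chemokine that draws B cells, was lowest at -3.36 ± 0.41 (SE, adjusted p = 5.22e-09), with medians of 1.30 CPM in XX and 11.5 CPM in XY mice. Ovariectomy lowered 5 of the 15, a share near the 33.4% of all genes, with Cxcr6 lowest (-1.38). It raised 1, Cx3cr1 (0.87), beside 36% of all genes. Castration raised 1, Cx3cr1 (1.12), beside 33.4% of all genes.

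**Figure D5:**
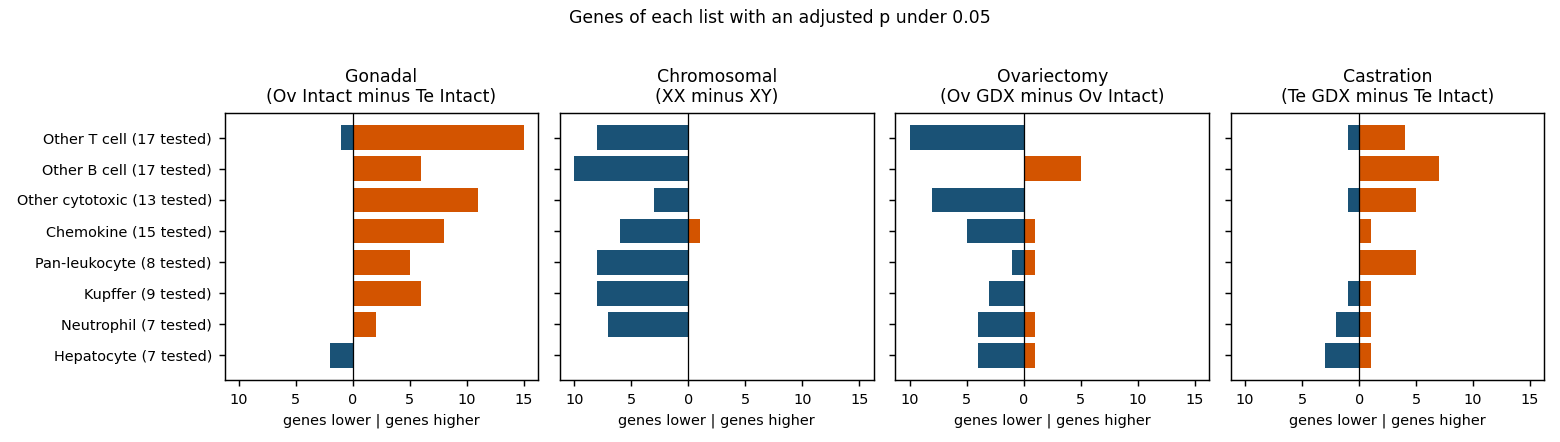
Number of genes of each list past an adjusted p of 0.05, lower to the left in blue and higher to the right in orange, in the 4 main comparisons. In the chromosomal panel the bars of the 7 leukocyte and chemokine lists lie to the left, apart from 1 chemokine gene, and the hepatocyte list has no bar.

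Genes shared by all leukocytes, lymphocytes included, and markers of Kupffer cells and neutrophils moved with the chromosomal effect as well, where 14.8% of all genes were lower in XX. Other leukocyte lists were less uniform. Of 8 monocyte and macrophage genes, 6 were lower and 2 higher in XX, and of 6 tested dendritic cell genes 2 were lower. All 8 pan-leukocyte genes were lower in XX (median log2 fold change -2.17), and Ptprc had -2.54 ± 0.17 (SE, adjusted p = 1.80e-16), with 8.74 to 41.8 CPM in XX and 14.8 to 374 CPM in XY mice. The pan-leukocyte sum ranged from 103 to 288 CPM in XX Ov Intact, 393 to 677 in XY Ov Intact, 139 to 288 in XX Te Intact and 141 to 532 in XY Te Intact mice. After GDX it ranged from 150 to 206 in XX Ov, 539 to 985 in XY Ov, 134 to 204 in XX Te and 525 to 1619 in XY Te mice. Of 9 Kupffer cell genes, 8 were lower in XX, and their sum was at 340 to 869 CPM in XX Ov Intact, 887 to 1304 in XY Ov Intact, 274 to 1048 in XX Te Intact and 328 to 871 in XY Te Intact mice. After GDX it was at 266 to 506 in XX Ov, 749 to 1464 in XY Ov, 185 to 436 in XX Te and 537 to 1876 in XY Te mice.

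All 7 tested neutrophil genes were lower in XX (median -3.05). Their list summed to 6.49 to 40.3 CPM in XX Ov Intact, 99.0 to 812 in XY Ov Intact, 4.27 to 62.5 in XX Te Intact and 9.82 to 146 in XY Te Intact mice. After GDX the sums were 4.94 to 12.2 in XX Ov, 53.9 to 93.0 in XY Ov, 4.61 to 7.77 in XX Te and 35.3 to 230 in XY Te mice. Ly6g, which defines mouse neutrophils, was under 3 reads in 42 of the 48 mice. None of 7 hepatocyte genes passed in the chromosomal effect, beside 36.7% of all genes. Their part in the lower lymphocyte transcripts of XX mice was not tested.

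In the gonadal effect 5 of the 8 pan-leukocyte genes, 6 of the 9 Kupffer genes and 2 of the 7 neutrophil genes were higher with ovaries, and none of them was lower. Of all tested genes, 25.3% passed in this effect and 14.1% were higher. Ovariectomy raised 36% and lowered 33.4% of all genes, and castration raised 33.4% and lowered 29.9%, shares to set beside the counts below. After ovariectomy 1 pan-leukocyte gene was higher and 1 lower, 3 Kupffer genes were lower, and 1 neutrophil gene was higher and 4 lower. After castration 5 pan-leukocyte genes were higher and none lower, 1 Kupffer gene was higher and 1 lower, and 1 neutrophil gene was higher and 2 lower. Of the hepatocyte genes, 2 were lower with ovaries, 1 was higher and 4 lower after ovariectomy, and 1 was higher and 3 lower after castration. What these cells contribute to the gonadal and GDX results was not tested.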

How the data were processed

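Liver RNA of 48 FCG mice was sequenced by the authors from KAPA mRNA HyperPrep libraries. Per the labels, STAR (version 2.7.10a) and GRCm39 were used, and DESeq2 (version 1.36.0) for the authors' own tests. The authors deposited whole-number counts of reads per gene, not normalized, with 4 summary lines (25.5 to 42.3% of all reads of a mouse) that were left out here. The annotation release, strand setting and trimming are not given in the sources used here, so genes that overlap cannot be told apart by strand. Symbols were matched to 31020 of 55414 identifiers (56.0%), some through older symbols, and the symbols Trdc, Ighd, Ccl21a, Tf, Hbb-bs and Hbb-bt of the gene lists were not matched.

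Groups were taken from the sample titles. The model, with a separate mean for each group, used edgeR (version 4.0.16, R version 4.3.3), TMM factors, filterByExpr, robust quasi-likelihood tests and Benjamini-Hochberg adjustment over 15414 genes, with a threshold of 0.05. CPM are per reads on genes, without TMM. Depth was 13071874 to 20045141 reads per mouse, and floors of 3 reads cover counting error only. All p-values measure the spread between mice. The members and the lists (other T cell, B cell and cytotoxic genes, chemokines, pan-leukocyte, hepatocyte, Kupffer, monocyte or macrophage, neutrophil, dendritic, endothelial, stellate, cholangiocyte, erythroid and pancreas genes) were chosen with earlier results of these data known.

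Named genes were the 10 members, Cd4, Ptprc, Ncr1, sex-linked genes, the highest and lowest called log2 fold change of each lymphocyte or chemokine list in the 4 main comparisons, and the 4 genes most like each role by Spearman's rho of log2 (CPM + 0.1). A further gene of this rule is not reported here. Any other gene named was chosen after its values were seen. Correlations used 100000 resamples in Python (version 3.11.15) with numpy (version 2.4.6), scipy (version 1.17.1) and pandas (version 2.3.3), and plots matplotlib (version 3.10.9). The test was tested on simulated data. Alternatives were DESeq2 size factors or library totals, the Wald test of DESeq2 (version 1.42.0), every gene with at least 1 read, the compared arms alone, no XX Te Intact replicate 5 (left out of 1 comparison of the study) or replicate 4 (some Y-linked reads), 1 surrogate variable from sva (version 3.50.0) and leaving out each mouse.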

Additional observations from a re-analysis of the deposited data

Results flagged for a closer look

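In each group of 6 mice, the level of each of the 10 transcripts was examined for a mouse far from the other 5. Of 80 such sets, 15 held a mouse whose gap to its nearest neighbour exceeded Dixon's critical share of the range. Chance gives this in about 1 of 20 sets of normally distributed values. That rate need not hold for CPM of low counts, and the sets share mice, so 15 is not shown to be an excess. XY Ov Intact replicate 4 was the highest of its group for Cd3g (2.67 CPM), Cd8a (2.33 CPM), Cd79a (2.85 CPM), Ms4a1 (9.19 CPM) and Ccl5 (6.11 CPM). XX Ov Intact replicate 4 was the highest for Cd3e (1.58 CPM) and Nkg7 (1.74 CPM). XX Te Intact replicate 2 was the highest for Cd79b (4.95 CPM) and Ccl5 (2.48 CPM). XY Ov GDX replicate 4 was the highest for Cd8a (2.40 CPM) and Ccl5 (5.72 CPM). Single transcripts stood out in XY Te GDX replicate 1 (Cd3g, 1.55 CPM) and XY Te Intact replicate 3 (Nkg7, 0.589 CPM). Cd8b1 stood out in XY Ov GDX replicate 3 (1.53 CPM) and XY Te GDX replicate 3 (1.22 CPM), where the highest count was 20 reads. All 15 were high and none low.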

How the results depend on the processing

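Of 277 values of a single transcript under the alternatives in the 4 main comparisons, 260 kept their direction and side of the threshold, 16 lost their call and 1 turned, Cd79a after ovariectomy (0.11 with library totals). The gonadal count of 7 was 3 (Cd3e, Cd3g and Nkg7) with the compared arms alone, where fewer mice enter. With 1 surrogate variable, ovariectomy called 1 (Gzma) in place of 5. Castration called 1 (Gzma) in place of 2 with every gene of at least 1 read, with the compared arms alone, where Cd3e was not among the tested genes, without XX Te Intact replicate 4 and with 1 surrogate variable. In Intact mice DESeq2 called 2 in the chromosomal effect (Cd79b and Ms4a1) in place of 1. Except where stated, the cause was not tested. Leaving out each mouse gave counts of 5 to 7 (gonadal), 6 to 8 (chromosomal), 4 to 6 (ovariectomy), 1 to 2 (castration), 0 to 0 (former gonad), 1 to 2 and 6 to 8 (chromosomal in Intact and in GDX mice), 0 to 1 (castration minus ovariectomy) and 0 to 1 (chromosomal in GDX minus Intact mice). No paired analysis was possible because no replicate number in the labels links mice of different groups. Medians of 2 to 46.5 reads per mouse limit the precision of single values.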

Other observations

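Lists of further liver cell types were counted in the same fit. The counts are to be set beside the shares of all tested genes. These were 25.3% in the gonadal and 36.7% in the chromosomal effect, 69.4% after ovariectomy and 63.3% after castration, in either direction. Of 8 monocyte and macrophage genes, 4 were higher and none lower with ovaries, 2 were higher and 6 lower in XX than in XY mice, 3 were higher and 2 lower after ovariectomy, and 5 were higher and 1 lower after castration. Of 6 tested dendritic cell genes, 2 were lower in XX and none passed in the gonadal effect, with 3 higher and 1 lower after ovariectomy and 2 higher after castration. Of 6 endothelial genes, 1 was higher with ovaries and 2 were lower in XX, with 1 higher and 1 lower after ovariectomy and 2 higher and 1 lower after castration. Of 7 stellate cell genes, 2 were higher with ovaries, and 1 was higher and 1 lower in XX, with 3 higher and 2 lower after ovariectomy and 3 higher and 1 lower after castration. Of 4 tested cholangiocyte genes, 1 was lower with ovaries and 1 higher in XX, with 2 higher after ovariectomy and 2 higher and 1 lower after castration. Of 3 erythroid genes, 1 was lower with ovaries, 2 were lower in XX, and 2 were lower after each of ovariectomy and castration. No pancreas gene was tested, since all 5 were near 0.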
